A study of Rattus norvegicus with 19 samples.

Results

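Rats that received 10 ml/kg of corn oil were compared with rats that received the same volume of saline, so that the liquid differed and the volume did not. The comparison took the 5 arrays titled 10 ml/kg corn oil and the 5 titled 10 ml/kg saline, 10 of the 19 arrays of the series. Each array held RNA from the whole thymus of a female Wistar rat, aged 7 weeks per the labels, after gavage once a day for 14 days. The animals were housed 3 to a cage under specific pathogen free conditions on standard diet, with 6 animals per group in the protocol. The other 9 arrays came from rats given corn oil at 2 ml/kg (5 arrays) or 5 ml/kg (4 arrays), and they entered the fit and are cited where they set the 10 ml/kg values in context. The labels do not say which animals shared a cage, so p-values measure the spread between these arrays.

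The thymus is the organ in which T cells mature. Immature thymocytes rearrange their receptor genes in the cortex and are selected on peptides that epithelial and other cells present on molecules of the major histocompatibility complex (MHC), which the rat carries as the RT1 complex. Corn oil is a common carrier for fat-soluble test substances and is itself a source of fatty acids.

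Levels are log2 of the processed spot intensity, set against the array's own 75th percentile, so that 0 is that percentile and 1 unit is a doubling. Differences are 10 ml/kg corn oil minus saline ± SE, with n = 5 and 5, and a gene was called at an adjusted p under 0.05. A probe stood for each gene, and levels of different genes are not compared. The labelled tissue held its markers in both groups. Rag1, which cuts the receptor genes, ran from 4.58 to 4.94 in saline and from 4.37 to 4.93 in corn oil. Cd8a ran from 3.78 to 4.10 and from 3.69 to 3.91.

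Of the genes named here, 4 carried the largest differences, and genes without a curated symbol were not ranked. The 250 bases before the start of each in RefSeq, assembly GRCr8, are shown because 2 of these genes are close neighbours. Capitals mark matches on either strand to 4 motifs. These were the TATA box in the form TATAAA, the CAAT box in the form CCAAT, the GC box in the form GGGCGG and the NF-kappa-B site in a 10-letter form.
Vegfb, chr1:213607153-213607402, minus strand: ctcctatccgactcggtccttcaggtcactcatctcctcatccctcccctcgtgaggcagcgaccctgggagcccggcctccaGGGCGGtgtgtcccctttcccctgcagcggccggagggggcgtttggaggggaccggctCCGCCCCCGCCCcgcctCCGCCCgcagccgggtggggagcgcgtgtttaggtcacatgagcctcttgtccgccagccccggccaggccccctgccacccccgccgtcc
Bad, chr1:213562864-213563113, plus strand: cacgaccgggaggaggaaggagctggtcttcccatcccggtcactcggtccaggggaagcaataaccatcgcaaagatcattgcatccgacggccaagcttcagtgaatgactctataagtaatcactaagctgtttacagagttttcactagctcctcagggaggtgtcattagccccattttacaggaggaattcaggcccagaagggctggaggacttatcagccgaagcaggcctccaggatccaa
Mei1, chr7:115470006-115470255, plus strand: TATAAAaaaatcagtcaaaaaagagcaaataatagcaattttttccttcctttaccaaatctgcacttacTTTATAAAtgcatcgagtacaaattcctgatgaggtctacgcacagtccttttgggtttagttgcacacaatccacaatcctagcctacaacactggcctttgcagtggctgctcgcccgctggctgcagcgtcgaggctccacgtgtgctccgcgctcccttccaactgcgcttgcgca
Lcn2, chr3:36081781-36082030, minus strand: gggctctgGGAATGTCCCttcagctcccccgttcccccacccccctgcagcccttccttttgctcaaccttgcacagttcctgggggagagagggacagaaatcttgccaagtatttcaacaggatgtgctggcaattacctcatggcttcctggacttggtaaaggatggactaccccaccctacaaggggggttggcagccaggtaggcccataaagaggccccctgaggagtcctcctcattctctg
The Vegfb promoter held 4 GGGCGG matches, that of Mei1 held 3 TATAAA matches, of which a pair overlapped, and that of Lcn2 held 1 match to the NF-kappa-B site. None of the 4 motifs was found in the window of Bad. Over 33469 promoters of the same length, 12.9% held TATAAA, 34% CCAAT, 30.5% GGGCGG and 1.08% the NF-kappa-B site. A match describes letters and was not tested as a binding site. Bad and Vegfb lie on the same chromosome with 4 annotated genes between their places in the RefSeq order.

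Arrays of a slide resembled each other across both liquids. The 10 ml/kg arrays lay on slide 3 (replicates 1, 2 and 3) and slide 5 (4 and 5), and the saline arrays on slide 4 (1 and 2), slide 1 (3 and 4) and slide 3 (5), so that only slide 3 held both groups. Slides 4 and 5 were scanned on the same day. Over 21846 genes, 63.9% of the variance lay on the first principal component, with saline replicate 5 at 74.2 beside the corn oil arrays of its slide at 91.7 to 99.1. The second held 8.66%, and the liquids overlapped there only through corn oil replicate 1 (-11.8). On this component the corn oil arrays of slide 5 stood at 52.6 and 53.8 and those of slide 3 from -11.8 to 8.19. The saline arrays ran from -42.9 (replicate 5, slide 3) to -6.81. Saline replicate 2 stood apart by its fat genes, with a summed level of 68.1 for 20 white adipocyte genes against 7.64 to 14.2 in the other saline arrays and 8.59 to 23.8 in corn oil. Values without it stand beside some of the lists whose counts or medians moved. The share of spots well above background ran from 78.9% to 83.2% in corn oil and from 69.7% to 88.2% in saline (two-sided exact permutation p = 0.635, 0.847 after adjustment over 4 such measures, smallest possible 0.00794). Spots marked as not uniform numbered 590, 446 and 594 on the corn oil arrays of slide 3, 173 on its saline array and 7 to 63 on the other 6 arrays. The group means of these spots were 342.8 in corn oil and 42.2 in saline (two-sided exact permutation p = 0.0556, 0.222 after adjustment). The part of these spots in the results was not tested.

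**Figure D1:**
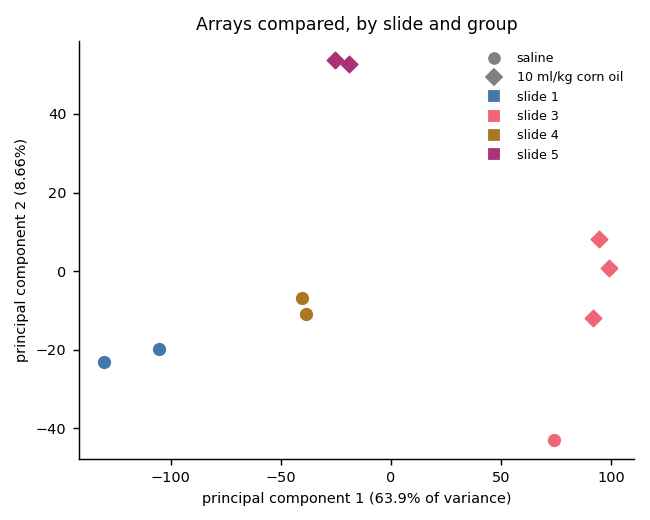
Scores of the 10 arrays on the first (x axis, 63.9% of variance) and second (y axis, 8.66%) principal components, with shapes for the liquid and colours for the slide. Arrays of a slide lie together on the x axis, and saline replicate 5 at 74.2 lies nearest the 3 corn oil arrays of slide 3.

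In the fit of all 19 arrays, 1365 of 22664 genes passed at 10 ml/kg against saline (6.02%). Of these, 663 were higher in corn oil (2.93%) and 702 were lower (3.1%). Quantile normalization gave 832 higher and 303 lower, and normexp background correction gave 254 higher and 74 lower. The median difference of all genes was -0.11, against 0.06 and 0.10 under those alternatives, so a difference near -0.11 is that of the median gene. With slide as a block, 442 genes passed (1.95%), and 320 passed both fits with the same sign (1.41%), 175 higher and 145 lower. In 1216 genes the 5 corn oil and 5 saline arrays did not overlap (5.37%). Without saline replicate 5, the saline array of slide 3, 4553 genes passed, and without both arrays of slide 1 the number was 567. Of the 1365, 195 had another tested probe, and in 45 of these another probe had the opposite sign.

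Vegfb encodes a ligand of the VEGF receptor Flt1 and had the largest difference of the genes named here. Its levels were -1.83, -0.82, -1.78, -1.91 and -1.68 on saline arrays 1 to 5 and -9.93, -9.82, -10.23, -9.51 and -9.69 on the corn oil arrays. Each saline array lay well above background and no corn oil array did, and no corn oil array came near a saline one. The difference was -8.23 ± 0.18 (adjusted p = 1.27e-14), and Vegfb was at least 83.7-fold lower, from the saline mean against the lowest measurable signal on the corn oil arrays. With slide as a block it was -8.21, and within slide 3 it was -8.31. Vegfb had no other tested probe, nor had Mei1, Bad and Lcn2, which follow. The list of VEGF ligands and receptors had 9 tested members, of which 1 rose, 1 fell and 7 did not pass (22.2% called against 6.02% of all genes). Its median was -0.09, and 0.20 without saline replicate 2. Pgf, placenta growth factor, rose by 0.75 ± 0.20 (adjusted p = 0.0357), but did not pass with slide as a block (adjusted p = 0.187, at 0.80). Its call was lost in 5 of 10 fits that left out 1 array (up to 0.105, at 0.64 without saline replicate 3). The other probe of Pgf gave 0.18 ± 0.32.

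Mei1, which acts in meiotic recombination, stood at -5.83, -6.46, -5.66, -6.35 and -6.15 in saline and at -0.90, -0.70, -0.34, -0.54 and -0.54 in corn oil. Every corn oil array was over 4 units above the highest saline array. Mei1 rose by 5.49 ± 0.23 (44.8-fold, adjusted p = 7.88e-11), and was well above background on 3 saline arrays. Its neighbour in the RefSeq order of tested genes, Ccdc134, also passed both fits (1.02).

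Bad, a member of the BCL2 family that promotes cell death, stood at -5.55, -5.40, -5.15, -5.91 and -5.87 in saline. In corn oil it stood at -0.38, -0.53, -0.62, -0.75 and -0.77, a narrow range far above the saline arrays. The rise was 4.97 ± 0.18 (31.3-fold, adjusted p = 1.32e-11). Of 18 tested members of the BCL2 family, 2 rose (Bad and the pore-forming Bak1, 0.50 ± 0.12), 2 fell and 14 did not pass. The share called was 22.2% against 6.02% of all genes, and the median difference was -0.06 against -0.11 over all genes. The members that fell were the BH3-only genes Pmaip1 (-1.53 ± 0.28) and Bmf (-0.69 ± 0.15). With slide as a block Bmf passed (-0.91, adjusted p = 0.0323), whereas Pmaip1 (0.0676) and Bak1 (0.249) did not. Bax, Bcl2, Mcl1 and Bcl2l11 had differences of -0.12, -0.15, 0.01 and 0.15 and did not pass. Among 25 other apoptosis genes, 0 rose and 2 fell (8% called, near the 6.02% of all genes). The receptor adaptor gene Tradd stood from 0.46 to 0.71 in saline and from -0.05 to 0.25 in corn oil (-0.43 ± 0.07, adjusted p = 0.000739), and Casp12 was the other (-0.68 ± 0.17). Leaving out 1 array ended the calls of Bak1 and Casp12 in 4 of 10 fits each, with adjusted p up to 0.0637 (0.43) and 0.0784 (-0.585), both without corn oil replicate 2.

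Lcn2, which encodes a siderophore-binding protein of neutrophil granules that many epithelia also make, stood at -4.98, -6.04, -4.81, -5.05 and -5.37 in saline. In corn oil it stood at -0.71, -0.42, -0.48, -0.43 and -0.13, and the groups did not overlap. It rose by 4.81 ± 0.21 (28.1-fold, adjusted p = 1.13e-10), by 4.83 within slide 3 and by 4.62 without saline replicate 2. The other genes of neutrophils had smaller differences, as given below.

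**Figure D2:**
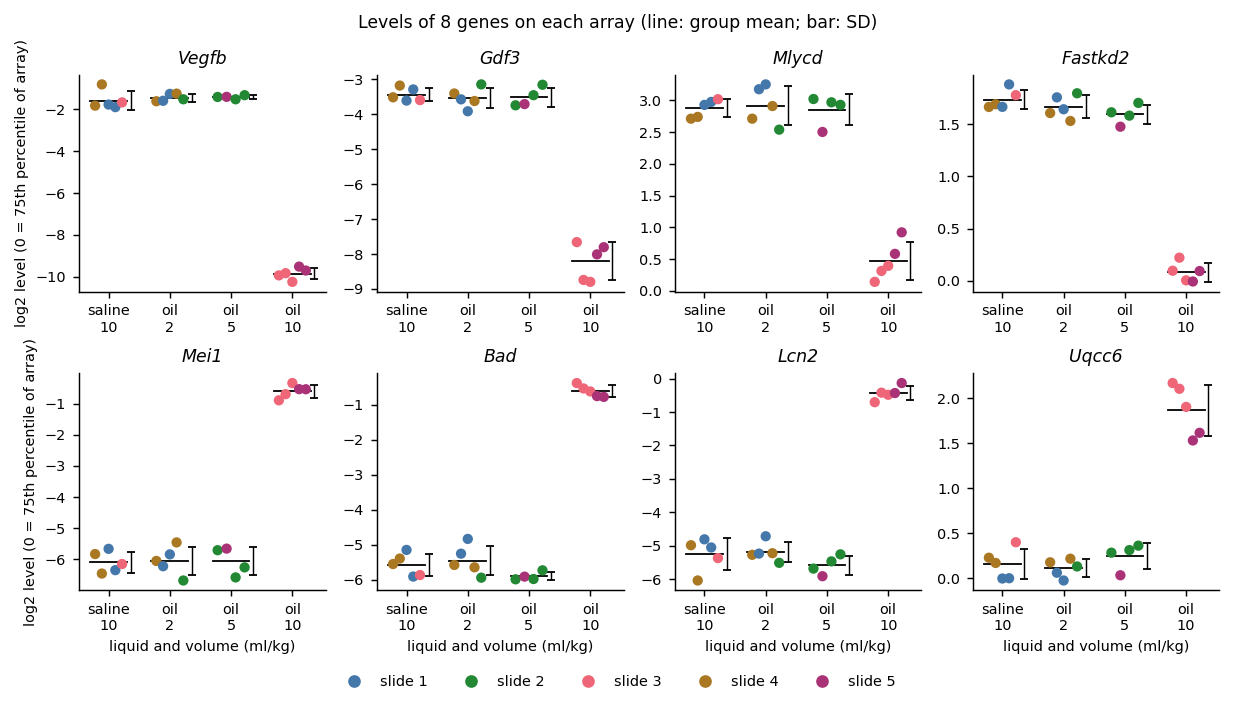
Level of 8 genes on each of the 19 arrays (y axis, log2, 0 at the 75th percentile of the array) by liquid and volume in ml/kg (x axis), coloured by slide, with the group mean as a line and the SD as a bar. The 10 ml/kg corn oil arrays lie apart from all others in each panel, below them for Vegfb, Gdf3, Mlycd and Fastkd2 and above them for Mei1, Bad, Lcn2 and Uqcc6.

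Several genes that were well above background on all 10 arrays also separated the groups. Mlycd encodes malonyl-CoA decarboxylase, which removes the inhibitor of fatty acid entry into mitochondria. It stood at 2.71, 2.74, 2.93, 2.98 and 3.02 in saline and at 0.14, 0.31, 0.39, 0.58 and 0.92 in corn oil, and fell by 2.40 ± 0.16 (5.30-fold, adjusted p = 5.85e-08). Within slide 3 the difference was -2.74, and between the arrays of slides 4 and 5 it was -1.97. Fastkd2, which encodes a binding protein of mitochondrial RNA, stood between 1.66 and 1.88 in saline and between -0.01 and 0.22 in corn oil. It fell by 1.65 ± 0.08 (3.15-fold, adjusted p = 2.35e-10). Uqcc6, an assembly factor of respiratory complex III, stood between -0.00 and 0.40 in saline and between 1.53 and 2.17 in corn oil. It rose by 1.71 ± 0.12 (3.26-fold, adjusted p = 1.61e-07), and its other probe gave 1.55. Ldhb, a subunit of lactate dehydrogenase, stood at 0.98, 2.26, 0.73, 0.57 and 1.00 in saline and at 3.65, 3.48, 3.29, 3.21 and 3.15 in corn oil. It rose by 2.24 ± 0.24 (adjusted p = 2.45e-05), with saline replicate 2 nearest the corn oil arrays. The lists of oxidative phosphorylation (32 tested) and ribosomal protein genes (30 tested) held no called gene, and their medians were 0.00 and -0.04.

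Other bright genes that rose were Serinc2 (1.61 ± 0.15), the cadherin gene Cdhr1 (1.39 ± 0.13) and Mgmt, which repairs alkylated guanine in DNA (1.14 ± 0.12). Mgmt stood between -0.05 and 0.35 in saline and between 0.98 and 1.72 in corn oil. Chmp1b, a component of the membrane-remodelling ESCRT machinery, fell by 1.05 ± 0.12. None of these overlapped between the groups, and all passed with slide as a block, but the rule that picked them required both.

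Dimmer genes with large rises included the alpha globin gene Hba-a3 (4.30 ± 0.64), Ccdc146 (3.54 ± 0.29), Nat8f5 (2.41 ± 0.16), Oas1d of the oligoadenylate synthetase family (2.39 ± 0.27), Lypd8l1 (2.38 ± 0.28) and Spata46 (2.30 ± 0.21). Nat8f5 was tight in both groups, from -3.13 to -2.81 in saline and from -0.92 to -0.23 in corn oil. The centromere gene Cenpt rose by 2.16 ± 0.18, the serine protease gene Prss30 by 2.14 ± 0.21 and Adm2, a peptide hormone gene of the adrenomedullin family, by 1.99 ± 0.20. The guanylate cyclase gene Gucy2g rose by 2.36 ± 0.30 and was well above background on 1 saline array. Abcc12, a transporter gene, was not well above background on any saline array and was at least 2.05-fold higher in corn oil (adjusted p = 0.00642). Only 1 saline array had Hba-a3 well above background, and its difference with slide as a block was 6.72. In the erythroid list it was the only called gene of 10 tested.

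Among the falls, the TGF-beta family gene Gdf3 went from levels of -3.61 to -3.18 in saline to levels of -8.80 to -7.66 in corn oil. The difference was -4.77 ± 0.22 (adjusted p = 2.23e-10), its other probe gave -4.44, and it was well above background on 1 corn oil array. Of 24 TGF-beta family ligands, 0 rose and 2 fell (8.33% called, near the 6.02% of all genes). These were Gdf3 and Bmp3 (-1.70 ± 0.28), and Bmp3 was not well above background on any corn oil array and reversed under normexp correction (0.50, adjusted p = 0.917). Without saline replicate 5 this list had 8 falls and 1 rise, and its median was -0.53 against -0.28 with that array. The lectin gene Itln1 fell by 4.40 ± 0.31, from levels of -1.29 to -0.53 on 4 saline arrays to -6.03 to -4.18, with the spot of saline replicate 5 missing. Cd300lg, a receptor gene of endothelium, fell by 4.20 ± 0.37, and its other probe gave -0.79. Sfrp2, a secreted inhibitor of Wnt signalling, stood between -1.08 and -0.41 in saline and between -3.68 and -2.40 in corn oil, and fell by 2.21 ± 0.20. Nrsn1, known from neurons, fell by 2.58 ± 0.53, the synaptic organiser gene Cbln1 by 2.07 ± 0.38 and the guanylate cyclase gene Gucy2e by 1.63 ± 0.46 (adjusted p = 0.0434). Cbln1 stood at -5.75, -5.99 and -6.26 on the corn oil arrays of slide 3 and at -3.58 and -4.49 on those of slide 5, against -3.39 to -2.72 in saline. Its difference was -3.28 within slide 3 and -0.80 (adjusted p = 0.176) between the arrays of slides 4 and 5. The Gucy2e call was lost in 6 of 10 fits that left out 1 array, with saline replicate 1, 3 or 4 or corn oil replicate 1, 2 or 3 left out, and the highest adjusted p was 0.124 (-1.36, without saline replicate 3). Krt88 (-2.02 ± 0.29) and the formin gene Fhdc1 (-1.59 ± 0.17) also fell.

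These differences were those of the highest volume. Of the 37 genes picked for size or brightness, 36 had all 5 arrays at 10 ml/kg apart from all 14 other arrays, the exception being Alb, against 645 of all genes tested (2.85%). The genes were chosen on the 10 ml/kg arrays, the bright ones partly by their adjusted p against saline. The comparisons with the lower volumes share the 10 ml/kg arrays, so these counts are not independent support. Against 5 ml/kg corn oil 36 of the 37 passed, all but Gucy2e, where 1776 of all genes did (7.84%). Against 2 ml/kg all 37 passed, where 2688 did (11.9%). With slide as a block the numbers were 33 and 34 of the 37, beside 260 (1.15%) and 271 (1.2%) of all genes. At 5 ml/kg against saline and at 2 ml/kg against saline, limma called 0 genes (0%), and the unadjusted p was under 0.05 for 1874 (8.27%) and 212 (0.935%). Vegfb, for example, had mean levels of -1.60 in saline, and of -1.46, -1.43 and -9.84 at the corn oil volumes in rising order. For Mei1 the means were -6.09, -6.05, -6.05 and -0.60. Within slide 3 all 36 of these genes with a value had the sign of the main difference, and all 37 did between the arrays of slides 4 and 5 that were scanned on the same day, both being subsets of the arrays that chose them. Of these, 33 passed within slide 3, all but Lypd8l1, Alb and RT1-N2, and 33 passed between slides 4 and 5, all but Cbln1, Nrsn1, RT1-N2 and Gucy2e.

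**Figure D3:**
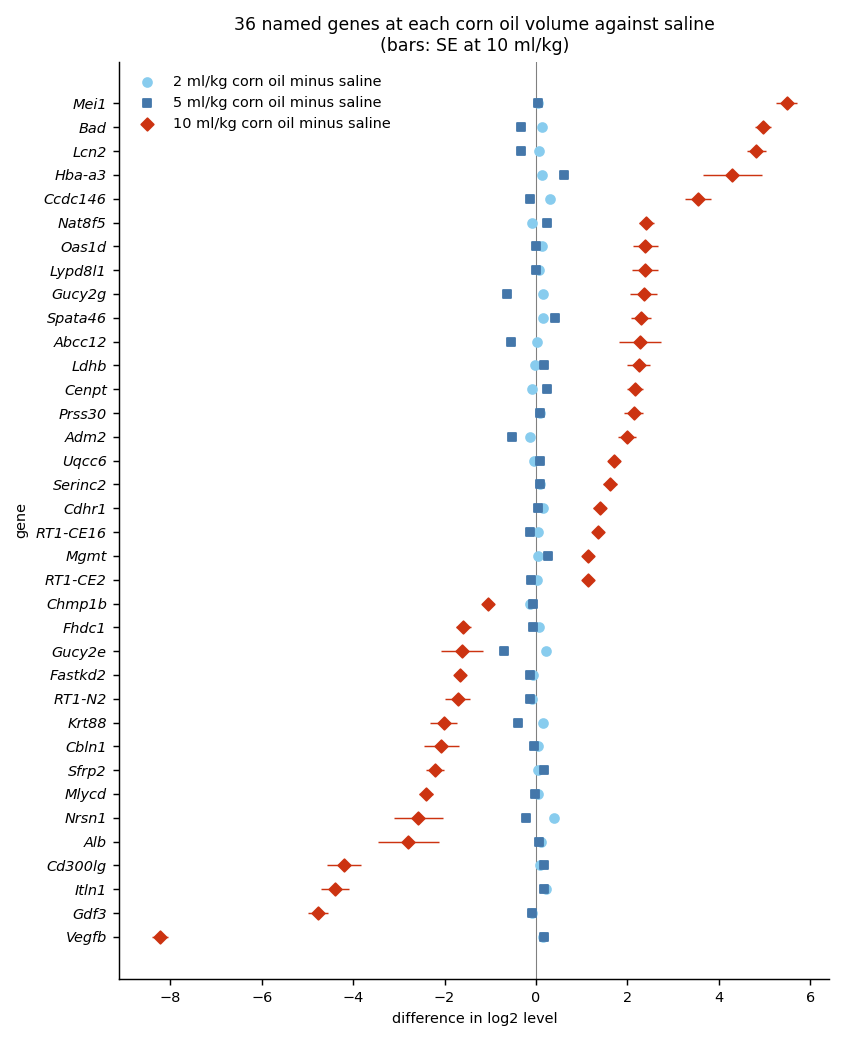
Difference from saline (x axis, log2) of 36 of the 37 genes picked for size or brightness (y axis) at 2, 5 and 10 ml/kg corn oil, with the SE drawn at 10 ml/kg. Points for 2 and 5 ml/kg lie near 0 while those for 10 ml/kg run from -8.23 for Vegfb to 5.49 for Mei1.

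Genes of the RT1 complex differed in both directions, a group that was chosen after its values were seen. Of 37 tested RT1 genes, 10 were higher, 6 were lower and 21 were not called, 43.2% called against 6.02% of all genes, and 9 passed both fits. Their median difference was 0.05, and the median of the absolute differences was 0.45 against 0.25 over all genes. Among class I genes, RT1-CE16 stood at 2.33, 2.29, 2.15, 2.31 and 2.34 in saline and at 3.55, 3.54, 3.60, 3.78 and 3.79 in corn oil, each group within a narrow range. It rose by 1.37 ± 0.08 (2.58-fold, adjusted p = 7.19e-09), and by 1.25 with slide as a block. RT1-CE2 rose by 1.13 ± 0.09 (its other probe 1.59), RT1-CE3 by 0.80 ± 0.13 and RT1-A2 by 0.70 ± 0.10. Next to RT1-CE16 in the order of tested genes, RT1-CE15 went the other way, from levels of -1.69 to -1.18 to levels of -3.11 to -2.03 (-1.13 ± 0.16, adjusted p = 0.000443). RT1-N2 fell by 1.72 ± 0.27, with levels of 4.27 to 4.93 in saline and 3.13, 1.39, 3.40, 3.11 and 2.97 in corn oil. RT1-CE11 (-0.98 ± 0.22) and RT1-CE10 (-0.57 ± 0.14) were lower with overlap between the groups. RT1 class I genes are near-identical copies, so which copy a probe reads is uncertain. A call with another probe of the opposite sign was RT1-M6-1 (-0.41, other probe 1.29).

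**Figure D4:**
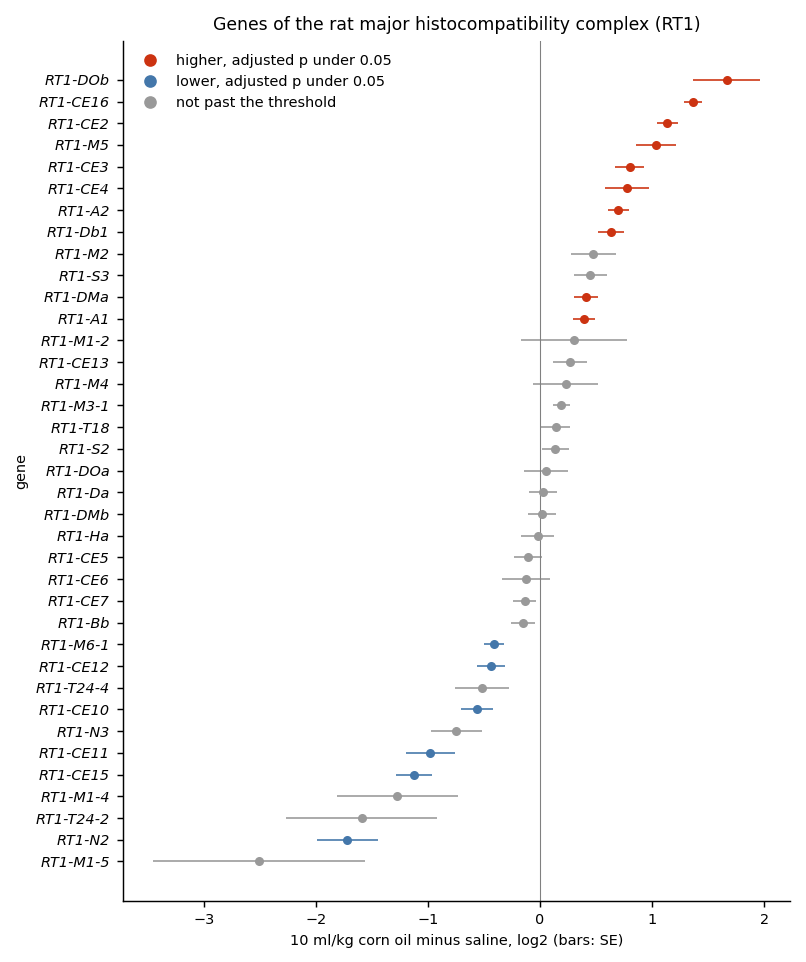
Difference of 37 RT1 genes between 10 ml/kg corn oil and saline (x axis, log2, bars are SE), with called genes in colour and the others in grey. The called genes run from -1.72 for RT1-N2 to 1.67 for RT1-DOb.

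On the class II side, RT1-DOb, a chain of the molecule that modulates peptide loading in B cells and medullary epithelium, rose by 1.67 ± 0.30 (adjusted p = 0.00257). Its levels were -3.82, -2.79, -2.89, -2.88 and -3.67 in saline and -2.05, -1.56, -1.16, -1.43 and -1.52 in corn oil. It kept its call under each planned and added alternative. The beta chain gene RT1-Db1 (0.64 ± 0.12) and RT1-DMa (0.41 ± 0.11) also rose, and the other 6 of 9 tested class II genes did not pass (33.3% called against 6.02% of all genes). RT1-Db1, RT1-DMa, Tap2 and RT1-A2 did not pass once slide was a block (adjusted p = 0.108, 0.170, 0.320 and 0.0623). The peptide transporter gene Tap2 rose by 0.86 ± 0.21, and the immunoproteasome gene Psmb8 fell by 0.30 ± 0.08 (with slide as a block -0.48, adjusted p = 0.0269). Leaving out 1 array ended the calls of Tap2 and Psmb8 in 3 of 10 fits each (up to 0.0646, at 0.75 without saline replicate 3, and 0.0917, at -0.27 without saline replicate 1). RT1-DMa lost its call in 4 (0.0848, at 0.36 without saline replicate 3).

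Some called genes lay next to each other in the RefSeq order of tested genes with a symbol, in which untested genes were skipped. Of the 191 genes with a symbol that passed both fits, 12 (6.28%) lay next to another such gene, against 375 of all 12620 tested genes with a symbol (2.97%), with no test made. The pairs were Ndel1 and Rnf222, Bloc1s6 and Sqor, Mei1 and Ccdc134, and 3 pairs of RT1 class I genes, whose copies are near-identical. Of these, RT1-CE16 and RT1-CE15 differed in opposite directions (1.37 and -1.13).

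Of 17 tested neutrophil genes, 6 rose in corn oil, 0 fell and 11 did not pass (35.3% called against 6.02% of all genes). All 17 had a positive difference, with a median of 1.15 against -0.11 over all genes. Beside Lcn2, these were Retnlg (1.61 ± 0.21, adjusted p = 0.000205), the collagenase gene Mmp8 (1.48 ± 0.41), the granule protease gene Prtn3 (1.32 ± 0.36), the calprotectin gene S100a9 (1.14 ± 0.31) and the granulocyte regulator Cebpe (1.11 ± 0.26). Retnlg stood at -1.30, -1.82, -0.99, -1.78 and -1.01 in saline and at -0.32, 0.58, 0.09, 0.83 and -0.04 in corn oil, without overlap. The summed level of the list ran from 15.8 to 44.5 in saline and from 41.8 to 68.3 in corn oil, with saline replicate 2 lowest and saline replicate 5 highest of the saline arrays. With slide as a block only Lcn2 of the 17 passed, the list median was 0.73, and within slide 3 it was 0.46. The list median was 0.90 without saline replicate 2, where 3 of its genes were called, and 10 were called without saline replicate 5. Over the 10 fits that left out 1 array, from 2 (without saline replicate 4) to 10 were called. Single arrays left out ended the calls of Mmp8 and Prtn3 in 6 of 10 fits each, with adjusted p up to 0.109 for Mmp8 (1.24, without saline replicate 4) and 0.102 for Prtn3 (1.22, without corn oil replicate 3). In whole tissue, more cells of a type and more RNA per cell cannot be told apart.

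Eosinophil and mast cell genes had 3 rises and 0 falls among 17 tested (17.6% called against 6.02% of all genes), with a median of 0.43. The eosinophil granule genes Prg3 (2.06 ± 0.45) and Prg2 (1.53 ± 0.32) did not overlap between the groups, and Prg2 stood at 0.47, 0.43, 0.93, 0.33 and 1.14 in saline and at 1.43, 2.99, 1.61, 3.01 and 1.91 in corn oil. The mast cell tryptase gene Tpsab1 rose by 0.98 ± 0.24. The Tpsab1 call was lost in 4 of 10 fits that left out 1 array (up to 0.0599, at 0.885 without saline replicate 4). The list sum was 2.58 to 3.44 in saline and 4.27 to 11.2 in corn oil, and none of the 3 passed with slide as a block (adjusted p = 0.185 to 0.436).

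Natural killer and cytotoxic cell genes had 4 falls and 0 rises among 14 tested (28.6% called against 6.02% of all genes), with a median of -0.29. The activating receptor gene Ncr1 fell by 3.05 ± 0.45 and was at least 2.74-fold lower, since no corn oil array was well above background. The receptor gene Klrb1a (-1.31 ± 0.20) and the granzyme genes Gzmk (-1.35 ± 0.33) and Gzmm (-1.13 ± 0.23) fell too. Klrb1a stood from -4.50 to -3.50 in saline and from -5.81 to -4.84 in corn oil, and both granzymes overlapped between the groups. Gzmk lost its call without corn oil replicate 2 or 3 (adjusted p up to 0.0593, at -1.12). The summed level of the list overlapped, from 12.0 to 17.6 in saline and from 9.10 to 15.8 in corn oil, and none of the 4 passed with slide as a block (adjusted p = 0.0713 to 0.167).

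Thymocyte genes were called at about the rate of all genes, 4 of 68 in 3 lists (5.88%) against 6.02%. Of 21 immature thymocyte genes 1 rose, Hes1, a target of Notch signalling (1.88 ± 0.40, adjusted p = 0.0102, with corn oil replicate 3 missing), and the other 20 did not pass. Of 24 genes of the T cell receptor complex and its signalling none was called. In this list 9 differences were positive and the median was -0.05. Among 23 genes of mature thymocytes and regulatory T cells, the chemokine receptor genes Ccr4 (-1.02 ± 0.14, adjusted p = 0.000214) and Ccr9 (-0.48 ± 0.12) fell, and Cd52 rose by 0.44 ± 0.12. Ccr4 stood from -3.15 to -2.79 in saline and from -4.31 to -3.54 in corn oil, and passed with slide as a block (-1.17, adjusted p = 0.00901). Of 33 cell cycle and DNA replication genes 1 was called, the cell cycle inhibitor gene Cdkn1b (-0.35 ± 0.10), which did not pass with slide as a block (adjusted p = 0.281). The call of Ccr9 was lost in 3 of 10 fits that left out 1 array (up to 0.0618, at -0.40 without corn oil replicate 3), that of Cd52 in 5 (0.0909, at 0.35 without saline replicate 3) and that of Cdkn1b in 6 (0.103, at -0.29 without saline replicate 4).

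Among stromal cells, 0 of 12 cortical and 0 of 13 medullary thymic epithelium genes were called. The median of the medullary list was 0.25, with 11 of 13 positive, and its summed level was 20.5 to 32.8 in saline and 31.1 to 41.9 in corn oil. The medullary keratin genes Krt5 and Krt14 had differences of 0.47 and 0.60 and did not pass. Without saline replicate 2, 2 of the medullary genes were called higher. Of 20 fibroblast and matrix genes 3 rose and 1 fell (20% called against 6.02% of all genes). Those that rose were the collagen genes Col1a1 (1.34 ± 0.30) and Col3a1 (1.06 ± 0.29) and Timp1, an inhibitor of matrix proteases (0.59 ± 0.10). Thy1, a surface protein of thymocytes as well as fibroblasts, fell by 0.54 ± 0.14. Of 19 endothelial and mural cell genes 3 rose (15.8% called), Tagln (0.92 ± 0.20), Pdgfrb (0.74 ± 0.18) and Pecam1 (0.55 ± 0.14), all with overlap. Of these 7 genes only Tagln passed with slide as a block. Its difference was 1.24 within slide 3 and 0.14 (adjusted p = 0.759) between the arrays of slides 4 and 5. Without saline replicate 2 the fibroblast list had 11 rises and 0 falls and a median of 0.66, against 0.34 with it. The endothelial list had 5 rises and a median of 0.20 without that array, against -0.06 with it, and 1 rise without saline replicate 1, 3 or 4 or corn oil replicate 3. With 1 array left out, calls were lost for Col3a1 (6 of 10 fits, adjusted p up to 0.109, at 0.885 without saline replicate 4), Thy1 (7, 0.0922, at -0.43 without corn oil replicate 2), Pecam1 (5, 0.0768, at 0.50 without saline replicate 3) and Pdgfrb (4, 0.0676, at 0.64 without saline replicate 3).

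Since corn oil supplies fatty acids, lipid genes were followed by pathway. Of 31 fatty acid oxidation and PPAR target genes, 1 rose and 4 fell (16.1% called against 6.02% of all genes), with a median of -0.31, which was -0.003 without saline replicate 2. Cpt1a, which admits fatty acids to mitochondria, stood from -2.32 to -2.11 in saline and from -1.68 to -1.15 in corn oil (0.73 ± 0.13, adjusted p = 0.00211). Those that fell were the kinase gene Pdk4 (-2.62 ± 0.65), the receptor gene Ppara (-2.25 ± 0.64), the fatty acid transporter gene Cd36 (-0.70 ± 0.18) and the thioesterase gene Acot2 (-0.51 ± 0.14). Pdk4 was not well above background on any corn oil array and was at least 2.10-fold lower, and saline replicate 2, at -4.13, was the highest. Under normexp correction its sign turned (0.03, adjusted p = 0.994). Of 10 fits that left out 1 array, Ppara lost its call in 9 (adjusted p up to 0.126, at -1.93 without saline replicate 4) and Acot2 in 7 (0.107, at -0.40 without corn oil replicate 2). Cd36 lost it in 2 (0.0641, at -0.68 without corn oil replicate 2) and Pdk4 in 2 (0.0657, at -2.42 without corn oil replicate 3). None of the 5 passed with slide as a block. Mlycd, given above, was not on this list. It passed with slide as a block (-2.28), as the rule that picked it required. The falls of the list numbered from 1 (without saline replicate 4 or corn oil replicate 1, 2 or 3) to 6 (without saline replicate 5) when 1 array was left out. Of 15 fatty acid synthesis genes, 20 white adipocyte genes and 7 brown fat genes none was called. The white adipocyte median was -0.54, and 0.23 without saline replicate 2. The brown fat median was -0.86, and -0.31 without that array. Of 26 genes of cholesterol synthesis and transport 1 rose, Dhcr7 (0.65 ± 0.15), which did not pass with slide as a block (adjusted p = 0.0679). Saline replicate 2 had a summed brown fat level of 29.6, against 0.56 to 1.22 in the other saline arrays and 0.43 to 0.60 in corn oil.

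The list of liver plasma protein genes had 5 falls and 1 rise among 19 tested (31.6% called against 6.02% of all genes). It also held Ttpa, which encodes a transfer protein inside liver cells. The list median was -0.87, which was 0.08 under normexp correction with 0 falls. Alb stood at -3.13, -0.84, -3.93, -3.45 and -1.38 in saline and at -4.01, -5.26, -4.81, -6.41 and -6.21 in corn oil (-2.79 ± 0.67, adjusted p = 0.0193). Ahsg (-3.20 ± 0.83) was low on the corn oil arrays of slide 3 (-10.12 to -8.88) and not on those of slide 5 (-5.22 and -4.95), and its call was lost in 5 of 10 fits that left out 1 array (adjusted p up to 0.0835, at -2.73 without corn oil replicate 3). Serpina1 fell by 1.65. Apoh (-2.69 ± 0.62) and Ttpa (-2.11 ± 0.47) were not well above background on any corn oil array, and under normexp correction their signs turned (0.10 and 0.08). Hp, an acute-phase protein that binds haemoglobin, rose by 1.21 ± 0.20, from levels of -1.71 to -0.33 to levels of 0.00 to 0.56. Alb alone of these 6 passed once slide was a block (adjusted p = 0.0472).

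Of 19 genes of the unfolded protein and amino acid response, 4 rose and 2 fell, 31.6% called against 6.02% of all genes. The shares were 22.2% of glucocorticoid response, 16% of xenobiotic metabolism, 12.5% of interferon response and 9.52% of antioxidant genes, each counted below and with no test of the list made. Trib3, a pseudokinase gene induced by amino acid shortage, rose by 0.75 ± 0.10 (adjusted p = 0.000253), from levels of -2.33 to -1.95 to levels of -1.49 to -1.16, and passed with slide as a block (adjusted p = 0.0484, at 0.59). Atf6 (0.91 ± 0.17) and Xbp1 (0.46 ± 0.08), transcription factors of the same response, and Creld2 (0.33 ± 0.09) rose, while the chaperone genes Pdia4 (-0.64 ± 0.15) and Dnajc3 (-0.42 ± 0.10) fell. Of 18 glucocorticoid response genes 4 rose, Lcn2 among them, with Il1r2 (0.67 ± 0.15), Anxa1 (0.46 ± 0.10) and Sgk1 (0.35 ± 0.08), and the list median was 0.10. Of 32 interferon response genes 4 rose and 0 fell. Beside Oas1d these were Ifi27 (0.72 ± 0.16), Usp18 (0.60 ± 0.12) and Ifit1, which was not well above background on any saline array (at least 1.14-fold higher, adjusted p = 0.0393). Of 21 antioxidant genes 2 rose, Txnrd1 (0.59 ± 0.13, its other probe 0.16 ± 0.16) and Gpx1 (0.36 ± 0.10). Of 25 xenobiotic metabolism genes 2 rose, Aox4 (2.58 ± 0.46) and Nat8 (1.48 ± 0.20), and 2 fell, the nuclear receptor gene Nr1i3 (-1.44 ± 0.29) and Cyp1b1 (-0.74 ± 0.20). Of the genes of these lists named here, Trib3, Lcn2, Oas1d and Ifit1 passed with slide as a block and the others did not. None of 15 heat shock genes or 25 proteasome genes was called. Leaving out 1 array ended the calls of Creld2, Gpx1 and Ifit1 in 7 of 10 fits each, of Dnajc3 and Cyp1b1 in 5 and of Pdia4 in 2. The highest adjusted p were 0.112 for Creld2 (0.30, without saline replicate 4), 0.115 for Gpx1 (0.30, without corn oil replicate 2), 0.0932 for Ifit1 (2.04, without saline replicate 1), 0.0634 for Dnajc3 (-0.38, without saline replicate 3), 0.0971 for Cyp1b1 (-0.66, without corn oil replicate 2) and 0.0552 for Pdia4 (-0.565, without corn oil replicate 3).

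**Figure D5:**
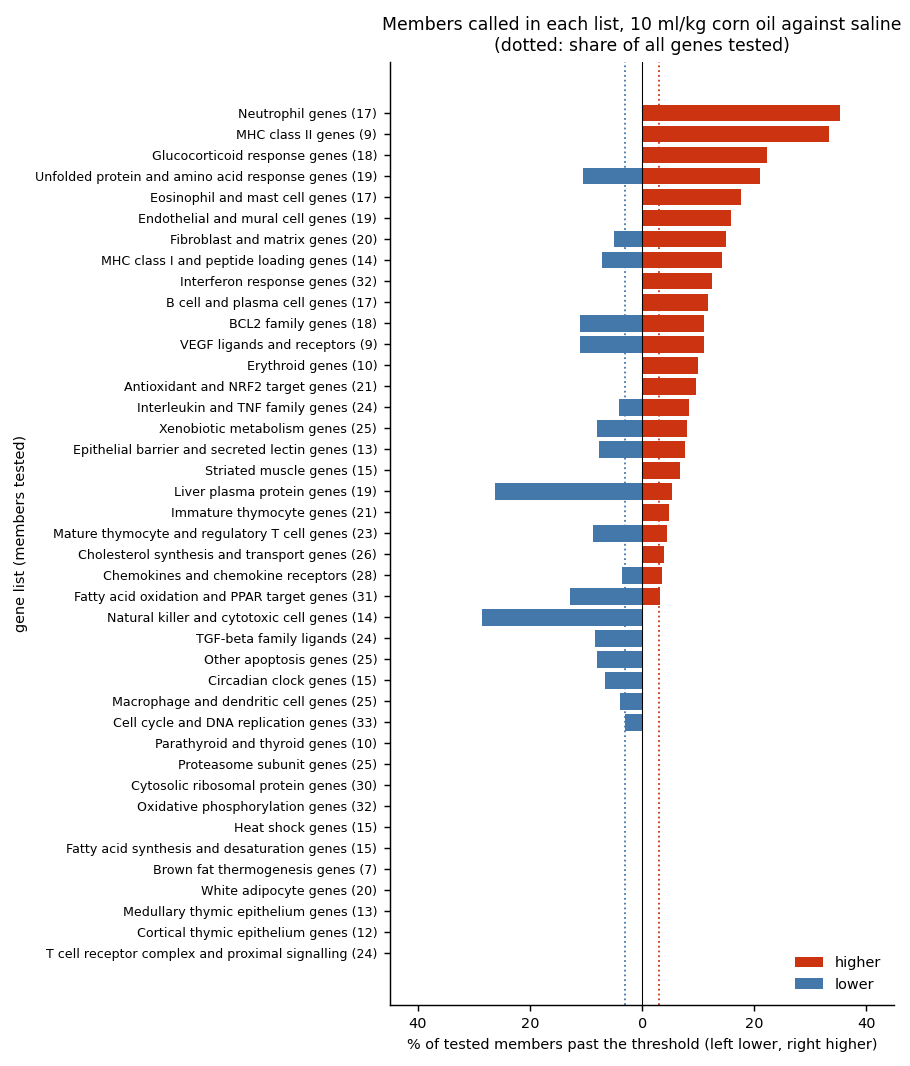
Share of the tested members of each of 41 gene lists (y axis, number tested in brackets) that were called higher (right) or lower (left) in corn oil, in percent (x axis), with dotted lines at the shares of all genes, 2.93% and 3.1%. Neutrophil genes show the largest share of rises, 6 of 17, and natural killer and cytotoxic genes the largest share of falls, 4 of 14.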

How the data were processed

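Cy3-labelled RNA was hybridised to 1-colour Agilent rat arrays, which were read with Feature Extraction 10.7.3.1, per the submitters' files. Per the file headers, the deposited values are processed intensity on a linear scale after background subtraction. The value table of the series, also deposited, holds intensity on a linear scale and had a Spearman correlation of 0.998 or more with each scanner file. How it was scaled between arrays is unknown, its column medians were 117 to 215 over the 10 arrays, and it served as an alternative.

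Control spots were left out, non-uniform spots and population outliers were treated as missing, spots of a probe were averaged, and each array's 75th percentile was subtracted on the log2 scale. No spot was saturated. Kept probes exceeded background clearly on 4 or more arrays and had 2 or more values in each group. The brightest of the 25475 probes kept stood for each of 22664 genes, with 1250 missing values in 818 genes. Accessions were matched to RefSeq symbols of assembly GRCr8, which named 17328 of 30367 probes, and 12620 tested genes had a symbol. The arrays' own design coordinates were not used.

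The model was fitted with limma 3.58.1 under R 4.3.3 by lmFit and eBayes, with two-sided tests. All 19 arrays entered, with group as the term (15 residual degrees of freedom, 11 with slide as a block). Every adjusted p-value is limma's, by Benjamini-Hochberg over the 22664 genes. Genes not well above background on any array of a group are given as "at least" folds. In simulated data for this comparison on 22664 genes, 62% of 100 genes changed by 1 log2 unit and 74% of 100 changed by 2 were recovered, with 5 false calls. The simulated noise was independent between arrays and held no slide effect, while arrays of a slide resembled each other in the data. These numbers therefore do not give the error rate of the comparison. The alternatives were quantile normalization, no scaling, normexp background correction, the deposited table, other filters and probe choices, a fit of the 10 arrays alone, slide as a fixed or random block, within slide 3, array weights, a replicate block and each array left out. The planned normexp correction named the mean signal, and the files hold the median signal, which was used with an offset of 50. Scan day as a block, within the scan day of slides 4 and 5, and leaving out slide 1 were chosen after seeing the data.

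Genes picked for size or brightness came from 143 curated symbols that passed with and without slide as a block. These had no overlap between the groups, were above background in 1 group and had no opposite probe. Picked were the 15 largest rises, the 15 largest falls and the 10 genes of high mean level with the smallest adjusted p. The bright genes were thus chosen partly on the adjusted p of this same comparison. Named genes also included up to 4 called genes in each direction per list. One gene that the rule picks is not reported here. The members and lists were chosen with earlier results of these data known.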

Additional observations from a re-analysis of the deposited data

Results flagged for a closer look

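A sample was marked when it lay far from the other 4 of its group, its gap to the nearest being over 0.71 of the group's range. Over the 110 named genes and both groups, 17 of 220 cases were marked, and chance alone marks about 1 in 20 groups. Of the 17, 13 were in saline and 4 in corn oil, and 8 were in saline replicate 2.

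Saline replicate 2 was highest of the saline arrays for each of its 8. It stood at 2.26 for Ldhb (nearest 1.00), -0.82 for Vegfb (nearest -1.68), -0.49 for Cd300lg (nearest -2.11) and -2.01 for Blnk (nearest -2.85). It stood at -2.50 for Tpsab1 (nearest -3.50), -4.13 for Pdk4 (nearest -7.32), -5.43 for Ttpa (nearest -7.40) and -1.82 for Trem2 (nearest -2.40). The same array had the highest summed levels of white adipocyte, brown fat, B cell and endothelial genes in saline, and the part of these in its values was not tested.

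Of the other saline arrays, replicate 5 was low for Hba-a3 (-10.72, nearest -8.44) and Dnajc3 (-0.39, nearest -0.05) and high for RT1-A1 (5.82, nearest 5.42). Replicate 3 was low for RT1-CE16 (2.15, nearest 2.29) and Ccr4 (-3.15, nearest -2.89). In corn oil, replicate 2 was low for RT1-N2 (1.39, nearest 2.97) and replicate 3 for Nat8 (-4.86, nearest -4.52). Corn oil replicate 1 was high for Krt19 (-0.87, nearest -1.67) and Gzmm (-1.10, nearest -1.85).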

How the results depend on the processing

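The count of 1365 called genes moved with the processing. It was 682 without scaling between arrays, 328 with normexp, 466 in a fit of the 10 arrays alone, 442 with slide as a block, 865 with slide as a random block, 676 within slide 3, 567 without the arrays of slide 1 and 6784 with array weights. Leaving out 1 array gave from 928 (without saline replicate 3) to 4553 (without saline replicate 5). It was 1135 with quantile normalization and 1390 in the deposited table, where 876 and 1267 of the 1365 were called again. Array weights called 1674 genes higher and 5110 lower, and the fit without saline replicate 5 called 1202 higher and 3351 lower. The causes were not tested. The 37 genes picked for size or brightness kept their sign under every alternative in which they were tested, and over all of them the call was kept in 912 cases and lost in 38, 12 of these with normexp (among them Hba-a3, Gucy2g, Spata46, Abcc12, Gdf3, Alb, Nrsn1, Cbln1, Krt88, Gucy2e and Fhdc1). The count of those genes past the threshold against both lower volumes was 36, and 31 with slide as a block. The 37 were chosen for passing with slide as a block with the same sign, so they could not lose the call there. The other alternatives reuse arrays that chose these genes, so the counts are not independent support. Of the 73 other named genes, which had no such condition, 62 lost their call with slide as a block and 51 in the fit of the 10 arrays alone. Signs turned with normexp for Pdk4 (0.027), Apoh (0.099), Ttpa (0.080), Bmp3 (0.495) and Nr1i3 (0.133), and in the deposited table for RT1-A1 (-0.005). Each of these was below background on some arrays except RT1-A1.

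The replicate numbers gave no pairing, since deviations of same-numbered arrays correlated at -0.0239, 0.0344, -0.449, 0.458 and -0.644. With a replicate block 1048 genes passed.

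Only slide 3 holds both groups, and its saline side is 1 array, so group and slide are separated there by that array and otherwise through the lower volumes. Signal over background limits dim genes, for which only a bound is given.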

Other observations

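Of 17 B cell and plasma cell genes 2 rose (11.8% called against 6.02% of all genes), Xbp1 (0.46 ± 0.08) and the adaptor gene Blnk (0.53 ± 0.15). The call of Blnk was lost in 7 of 10 fits that left out 1 array (adjusted p up to 0.115, at 0.47 without saline replicate 3). The summed level of the list was 7.20 to 7.91 in corn oil, 4.28 to 5.18 in saline replicates 1, 3, 4 and 5 and 15.3 in saline replicate 2. Without saline replicate 2, 9 genes of this list were called higher and its median was 0.675, against 0.357 with it. Of 25 macrophage and dendritic cell genes 0 rose and 1 fell, Trem2, a lipid-sensing receptor gene (-1.29 ± 0.27). Of 28 chemokines and their receptors (7.14% called, near the 6.02% of all genes), Cxcl16 rose (0.50 ± 0.09) and Ccl3 fell (-0.90 ± 0.16). Ccl3 stood between 0.77 and 0.93 in saline and between -0.50 and 0.48 in corn oil. Of 24 interleukin and TNF family genes (12.5% called), Il1rn, the natural antagonist of interleukin 1 receptors, rose by 1.00 ± 0.18 and Il12a by 0.46 ± 0.13, and Il15 fell by 0.43 ± 0.12. Il12a and Il15 each lost the call in 7 of 10 fits that left out 1 array, with adjusted p up to 0.0993 (0.44, without corn oil replicate 3) and 0.129 (-0.37, without corn oil replicate 2). None of these genes passed once slide was a block, the adjusted p running from 0.0648 for Ccl3 to 0.323 for Il15.

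Of 15 circadian clock genes 1 fell, the repressor gene Cry2 (-0.85 ± 0.17, with slide as a block adjusted p = 0.112), and 0 rose. Of 15 striated muscle genes 1 rose, Pvalb (0.87 ± 0.22), which passed with slide as a block (1.27) and lost its call in 4 of 10 fits that left out 1 array (adjusted p up to 0.0644, at 0.76 without corn oil replicate 1). Of 13 epithelial barrier and lectin genes, Krt19 rose (1.01 ± 0.19, with slide as a block adjusted p = 0.227) and Itln1 fell. Of 10 parathyroid and thyroid genes none was called. Of 14 MHC class I and peptide loading genes 2 rose and 1 fell (21.4% called against 6.02% of all genes).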
